A study of Homo sapiens with 6 samples.

Results

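Canonical Wnt target genes are genes whose transcription is known to rise in many tissues when beta-catenin reaches the nucleus. A list of 34 of them was followed in the human myeloma line MM1.S after knockdown of beta-catenin. A member was read by the Affymetrix probe sets that the array annotation pairs with its symbol alone. This found 77 probe sets for 33 of the 34 members, among 19775 genes with such a probe set on the array. EPHB2 had no probe set under that annotation and was not analysed here.

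In the canonical Wnt pathway a Wnt ligand binds Frizzled and LRP receptors and stops a cytoplasmic destruction complex from marking beta-catenin for degradation. Beta-catenin then joins DNA-bound TCF and LEF factors and activates target genes, several of which encode inhibitors of the pathway itself, so that signalling limits its own strength. Multiple myeloma is a cancer of plasma cells, in which active beta-catenin signalling has been described without the mutations of APC or of beta-catenin that drive it in colon cancer.

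The control cultures were MM1.S cells infected with a pKLO lentivirus and named pKLO GFP control in the sample titles, and the knockdown cultures carried pKLO beta-catenin shRNA. Both were sorted for GFP and grown in triplicate, which gave 3 control and 3 knockdown arrays. All arrays come from 1 cell line, and the labels used here give neither separate infections nor the number of hairpins, so the p-values measure the spread between these cultures. The 3 arrays a group limit the precision, and in RNA of whole cultures fewer cells with a transcript and less of it per cell cannot be told apart.

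The deposited values were on a log2 scale with a floor at 4. They had the form log2(signal + 16), read from the values, so differences of dim probe sets are compressed. Array medians lay between 5.44 and 5.54. All 10 listed plasma cell markers lay above the level used as a filter, 5.49, with control means of 6.81 to 11.98. Among these markers the knockdown had 4 called higher and 3 called lower (70%), where 47.3% of all genes tested were called. Their summed log2 values ran from 95.6 to 96.5 on the control arrays and from 97.4 to 97.9 on the knockdown arrays. The part of these markers in the results was not tested. Of the 6 listed T and NK cell markers 5 lay below the filter, as did 3 of 5 epithelial markers. Above it lay 5 of 6 fibroblast markers, with COL1A1 at 7.91 in the controls. Of the B cell markers with a probe set 2 of 4 lay above it, with CD22 at 7.66 in the controls. The same held for 2 of 4 myeloid markers, with LYZ at 6.74. Among 12 tested markers of B, T and NK, myeloid, fibroblast and epithelial cells 1 was called, beside 47.3% of all genes tested. It was the myeloid receptor gene CSF1R, which was higher by 0.31 with no overlap of the groups (limma, adjusted p = 0.0332). The part of CSF1R in the results was not tested. A value above the floor or the filter is therefore not by itself a sign that a gene is expressed.

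CTNNB1, the gene of beta-catenin, was lower in the knockdown on its brightest probe set. That probe set read 7.82, 7.67 and 7.75 on the control arrays and 6.39, 6.53 and 6.34 on the knockdown arrays. The change was −1.33 on the log2 scale (SE 0.10, n = 3 arrays a group, limma, adjusted p = 9.04e-12), which corresponds to 34.9% of the control signal once the offset of 16 is removed. The other probe sets of CTNNB1 did not show this fall: one was higher by 0.33 (limma on all probe sets, adjusted p = 0.0390) and a dim one differed by −0.07 (limma on all probe sets, adjusted p = 0.716).

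Beside this fall, few of the listed members were called, and those that were moved by little. Of the 33 members with a probe set, 32 had one above the floor on all 6 arrays. In 19 the brightest probe set had a mean at or above the filter, and these were tested, while 14 lay below it. Of the 19, 2 were called higher in the knockdown (AXIN2 and TIAM1), 1 was called lower (SOX4) and 16 were not called (limma, adjusted p under 0.05 over all genes tested). The 3 called are 15.8% of the tested members, where 47.3% of all 12939 genes tested were called. At an unadjusted p under 0.05 no further member passed, with 3 in all. How many of all genes passed that threshold was not counted, but the 47.3% called are among them. The 1 member called lower stands beside 22% of all genes called lower, and the 2 called higher beside 25.3%. The members were dimmer than many genes, and of the 8089 tested genes no brighter than the brightest member 36.5% were called. That bound was EDN1, with a mean of 7.08, while all other tested members lay at 6.68 or below. The 36.5% is therefore not a share at the members' own levels.

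The tested members' changes ran from −0.34 to 0.38 on the log2 scale, with a median of 0.05, equal to the median of 0.05 over all genes tested. In 16 of the 19 the change was under 0.2 in size. There were 13 changes above 0 and 6 below it. Signs over all genes were not counted, so the sign counts here have no background share. The median over all genes tested was itself above 0 and became 0.0057 with quantile normalization. Over all 33 members, with those below the filter read from a fit on all probe sets, 24 changes were above 0 and 9 below it, and the groups of arrays did not overlap for 4 members (12.1%), against 42.8% of all genes.

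**Figure D1:**
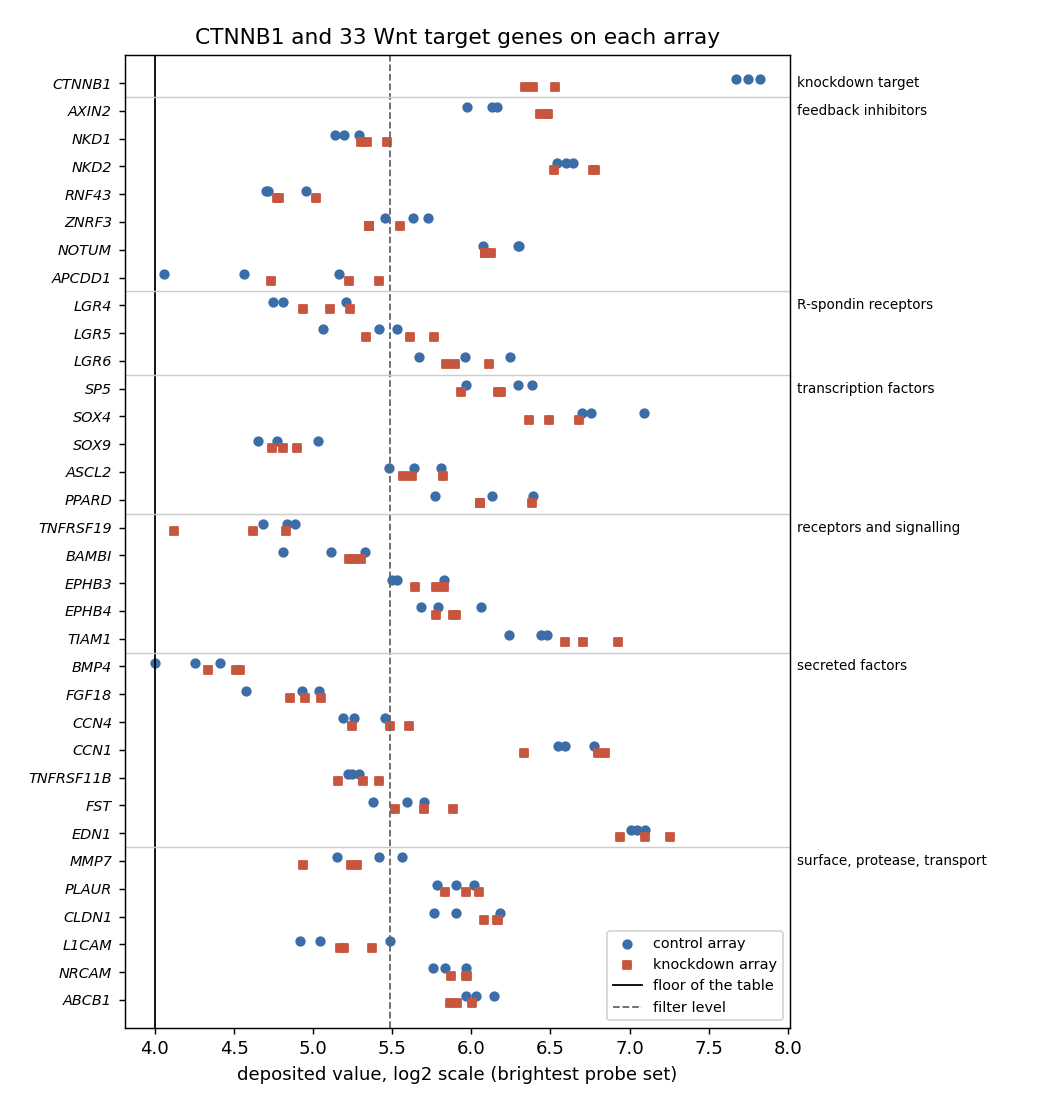
Deposited value on the log2 scale (x axis) of the brightest probe set of CTNNB1 and of each of the 33 members (rows, grouped by role), with a blue circle for each control array and a red square for each knockdown array; the solid line is the floor of 4 and the dashed line the filter at 5.49. The groups are far apart for CTNNB1, while for all members but AXIN2, NKD1, SOX4 and TIAM1 the control and knockdown points overlap.

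The size of the intervals shows what these arrays could have seen. Standard errors of the tested members were 0.11 to 0.13, and no 95% interval of a tested member, unadjusted for the number of genes, reached below −0.58. Under the offset of 16, a loss of 50% of the signal would have moved these probe sets by between −0.58, for FST, and −0.84, for EDN1. Such a loss lay outside the interval for 19 of the 19 tested members, and for 32 of all 33. The exception was TNFRSF19, a dim probe set whose interval ran from −0.64 to 0.08. This concerns the signal of the probe set, which also holds whatever background and unrelated hybridisation it picks up. No array value of these probe sets exceeded 7.25, while the fibroblast marker COL1A1 had a control mean of 7.91. The intervals therefore do not bound the change of the members' transcripts.

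**Figure D2:**
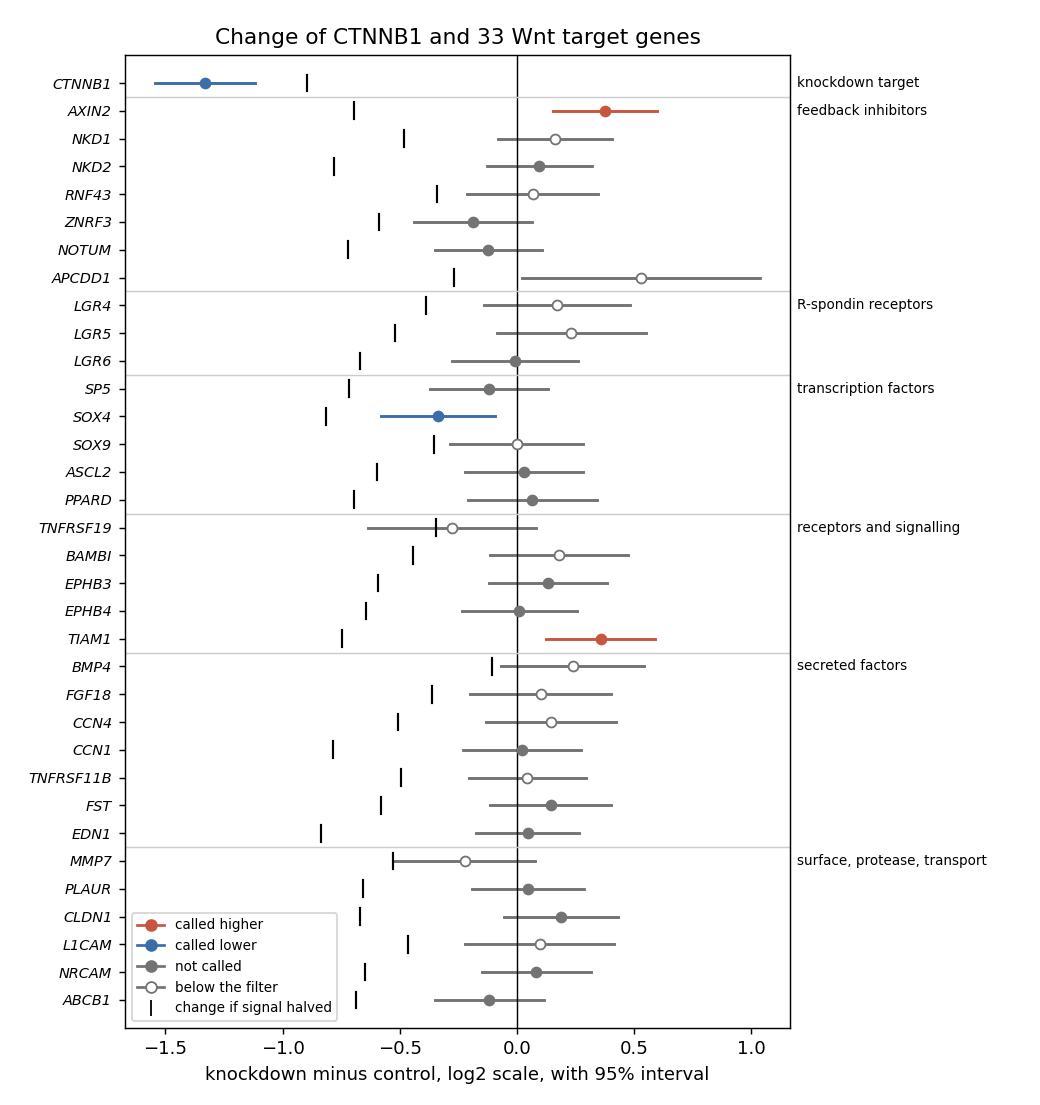
Knockdown minus control on the log2 scale (x axis) with its unadjusted 95% interval for CTNNB1 and the 33 members (rows); filled points come from the fit over tested genes, open points from the fit over all probe sets for members below the filter, and each black tick marks the change that a 50% loss of signal would give at that gene's control level. CTNNB1 lies left of its tick at −1.33, while every tested member's interval lies right of its tick.

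Feedback inhibitors are the targets most tightly tied to the pathway across tissues, and 7 were listed. AXIN2, a scaffold of the destruction complex and a widely used readout of beta-catenin activity, was called higher rather than lower. Its brightest probe set read 6.16, 5.98 and 6.13 on the control arrays and 6.48, 6.48 and 6.43 on the knockdown arrays. All 3 knockdown arrays lay above all 3 controls, a difference of 0.38 (SE 0.11, limma, adjusted p = 0.00530) or 139% of the control signal with the offset removed (exact permutation p = 0.1, the smallest that 3 against 3 arrays allow).

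The other AXIN2 probe sets did not carry the rise evenly. The called probe set has an _x_ name, by which Affymetrix marks probes that may bind unrelated transcripts. A probe set of AXIN2 without a mark, about as bright, had a mean of 6.00 in the controls and 6.01 in the knockdown (limma on all probe sets, adjusted p = 0.984). The gap between these probe sets was 0.07 to 0.11 on the control arrays and 0.44 to 0.47 on the knockdown arrays, so that they diverged by 0.37 (exact permutation p = 0.1). Of the dimmer ones, one was higher by 0.28 (limma on all probe sets, adjusted p = 0.161) with no overlap of the groups, and the other differed by −0.10 (limma on all probe sets, adjusted p = 0.651). AXIN2 was not called when its probe sets were averaged (0.14, limma, adjusted p = 0.178) or when unmarked probe sets were preferred (0.0048, limma, adjusted p = 0.977).

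NKD1 and NKD2 encode Naked cuticle proteins, which bind Dishevelled and dampen Wnt signalling. NKD2, with 1 probe set, read 6.54, 6.60 and 6.64 in the controls and 6.77, 6.78 and 6.52 in the knockdown. Of its knockdown arrays 2 lay above every control and 1 below, and the change of 0.09 was not called (95% interval −0.13 to 0.32, limma, adjusted p = 0.506). NKD1 lay below the filter at 5.29, 5.19 and 5.14 in the controls and 5.30, 5.46 and 5.34 in the knockdown. Its groups lay just apart, yet its other probe sets differed by −0.07 and −0.29, and none of the 3 was called (limma on all probe sets, smallest adjusted p = 0.176).

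RNF43 and ZNRF3 are membrane ubiquitin ligases that remove Frizzled receptors from the cell surface. ZNRF3 read 5.72, 5.63 and 5.45 in the controls and 5.55, 5.35 and 5.36 in the knockdown. The knockdown arrays tended to the lower side with overlap, and the change of −0.19 was not called (95% interval −0.44 to 0.07, limma, adjusted p = 0.225). ZNRF3 was also the tested member nearest the filter, with a mean of 5.51, while LGR5 at 5.45 was the nearest below it. RNF43 was dim on all arrays, at 4.70 to 4.96 on control arrays and 4.77 to 5.02 on knockdown arrays.

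NOTUM, a secreted enzyme that strips the lipid from Wnt proteins, read 6.07, 6.30 and 6.30 in the controls and 6.09, 6.09 and 6.12 in the knockdown. The lowest control array lay under the knockdown arrays, so the groups overlapped, and the change was −0.12 (95% interval −0.35 to 0.11, limma, adjusted p = 0.393). APCDD1, a membrane inhibitor of Wnt signalling, scattered widely below the filter, from 4.06 to 5.16 on control arrays and from 4.73 to 5.42 on knockdown arrays. Its difference of 0.53 was the largest of all 33 in size but was not called (limma on all probe sets, adjusted p = 0.131), and a further probe set of APCDD1 differed by 0.0073.

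LGR4, LGR5 and LGR6 are receptors for R-spondins, which strengthen Wnt signals by removing RNF43 and ZNRF3, and LGR5 marks stem cells of the intestine. LGR6, with 1 probe set, read 5.96, 5.67 and 6.24 in the controls and 6.11, 5.84 and 5.90 in the knockdown. The knockdown arrays lay inside the range of the controls, and the change was −0.01 (95% interval −0.28 to 0.26, limma, adjusted p = 0.965). LGR5 lay below the filter at 5.07, 5.53 and 5.42 in the controls and 5.76, 5.61 and 5.33 in the knockdown, with overlap and no call (limma on all probe sets, adjusted p = 0.306). LGR4 was dimmer still, at 4.75 to 5.21 on control arrays and 4.94 to 5.23 on knockdown arrays on its brightest probe set, and a further LGR4 probe set lay at the floor on 2 knockdown arrays.

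Of the 5 transcription factors, SOX4 was called lower, 3 were not called and SOX9 lay below the filter. SOX4, an HMG-box factor of lymphoid and epithelial progenitors, read 6.76, 7.09 and 6.70 in the controls and 6.68, 6.49 and 6.36 in the knockdown. The highest knockdown array lay just under the lowest control. The change was −0.34 (SE 0.12, limma, adjusted p = 0.0201), or to 75.8% of the control signal with the offset removed (exact permutation p = 0.1, the smallest possible).

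SOX4 is read by 6 probe sets, and the fall was seen on the brightest alone. In the fit on all probe sets that one was not called (limma, adjusted p = 0.0703). Averaged over the other 5, SOX4 was higher by 0.22, at 5.50 in the controls and 5.72 in the knockdown. The gap between the brightest probe set and these 5 was 1.05 to 1.65 on the control arrays and 0.72 to 0.95 on the knockdown arrays, a difference of −0.56 (exact permutation p = 0.1). The mean over all 6 was higher in the knockdown by 0.13 and not called (limma, adjusted p = 0.261), so the direction of SOX4 turned with the choice of probe set. The fall also was not called without control replicate 2 (−0.22, limma, adjusted p = 0.135), without knockdown replicate 2 (−0.33, limma, adjusted p = 0.0538) or without knockdown replicate 3 (−0.26, limma, adjusted p = 0.0922).

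**Figure D3:**
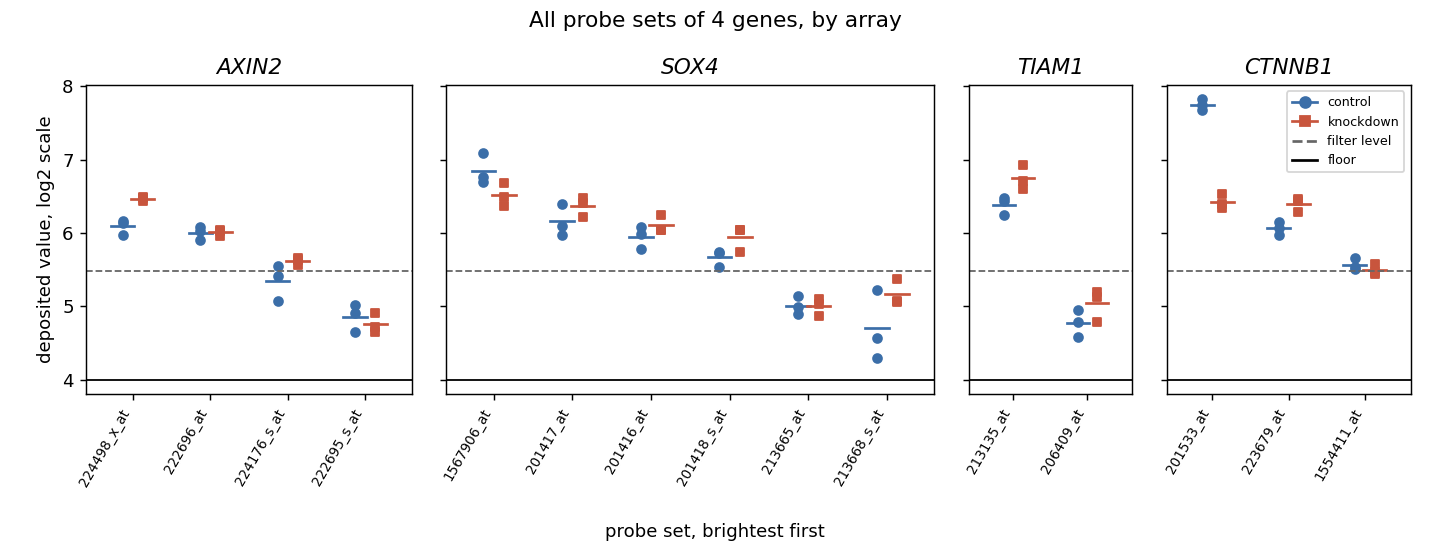
Deposited value on the log2 scale (y axis) of every probe set of AXIN2, SOX4, TIAM1 and CTNNB1 (x axis, brightest first), with a blue circle for each control array, a red square for each knockdown array and short lines at the group means; the dashed line is the filter at 5.49 and the solid line the floor of 4. For AXIN2, SOX4 and CTNNB1 the called change is seen on the leftmost probe set and not on the next one.

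SP5, a zinc finger repressor of the SP family, is a direct target of beta-catenin in many cell types. It read 6.38, 6.29 and 5.96 in the controls and 5.93, 6.17 and 6.18 in the knockdown. The groups overlapped, and the change of −0.12 was not called (95% interval −0.37 to 0.13, limma, adjusted p = 0.452). ASCL2, a basic helix-loop-helix factor of intestinal stem cells, read 5.64, 5.81 and 5.48 in the controls and 5.63, 5.57 and 5.82 in the knockdown, a change of 0.03 (limma, adjusted p = 0.865).

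PPARD, a nuclear receptor for fatty acids, read 6.39, 5.77 and 6.13 in the controls and 6.06, 6.05 and 6.38 in the knockdown. Its control arrays spread more than the groups differed, and the change was 0.07 (limma, adjusted p = 0.723). Across its 4 probe sets the changes ran from −0.05 to 0.07. SOX9, a factor of progenitors in gut and cartilage, had a mean of 4.82 in both groups on its brighter probe set (limma on all probe sets, adjusted p = 0.999), while the dimmer one differed by 0.45 (limma on all probe sets, adjusted p = 0.112).

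Promoter sequences show which members could carry a TCF/LEF binding motif close to their start. Windows of 250 bases before to 50 after a RefSeq gene start, on build GRCh38.p14, were at hand for 24 of the 34 members, in 37 windows. The others were AXIN2, NKD1, ZNRF3, NOTUM, LGR5, SOX9, ASCL2, CCN4, CCN1 and TNFRSF11B. Each was searched on both strands for the letters CTTTG followed by 2 bases that are each A or T, the core that TCF and LEF factors bind. A match was found in 5 of the 37 windows (13.5%), against 13.8% of all 35116 windows, so the members' share was close to that of all windows. The windows were those of SP5, FGF18, EDN1, MMP7 and NRCAM. In NRCAM the match lay after the start and is not shown. TIAM1 and SOX4 had no match, which says only that these letters are absent from this window, and AXIN2, the remaining called member, was not searched. The matches before the start are printed 5′ to 3′ on the gene's strand with the motif in capitals, where a match on the other strand reads as its reverse complement.
SP5, chr2:170715169-170715279, plus strand: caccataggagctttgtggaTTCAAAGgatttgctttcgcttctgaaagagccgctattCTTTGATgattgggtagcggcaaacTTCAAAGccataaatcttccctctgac
FGF18, chr5:171419453-171419499, plus strand: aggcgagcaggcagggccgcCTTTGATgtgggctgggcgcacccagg
EDN1, chr6:12287779-12287825, plus strand: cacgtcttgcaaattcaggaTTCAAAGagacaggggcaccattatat
MMP7, chr11:102530830-102530961, minus strand: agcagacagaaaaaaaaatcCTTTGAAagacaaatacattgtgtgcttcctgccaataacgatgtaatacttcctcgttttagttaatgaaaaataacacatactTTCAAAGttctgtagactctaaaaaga

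The SP5 stretch held 3 matches, the first 148 and the last 84 bases before the start, counted from the first base of each match. MMP7 held 2. None of these 4 genes was called on any of its probe sets (for EDN1, MMP7 and FGF18 the values follow). A match is a description of the sequence and not a bound site.

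Among receptors and signalling proteins, TIAM1, an exchange factor that activates the small GTPase RAC, was called higher. It read 6.48, 6.24 and 6.44 in the controls and 6.93, 6.71 and 6.59 in the knockdown. The groups did not overlap, and the rise was 0.36 (SE 0.11, limma, adjusted p = 0.0109) or 135% of the control signal with the offset removed (exact permutation p = 0.1, the smallest possible). A dimmer TIAM1 probe set differed in the same direction by 0.27 without a call (limma on all probe sets, adjusted p = 0.224). The gap between the probe sets of TIAM1 was 1.61 in the controls and 1.70 in the knockdown (exact permutation p = 0.8). Averaged over both, TIAM1 was still called higher (0.31, limma, adjusted p = 0.0195). It was not called without knockdown replicate 1 (0.27, limma, adjusted p = 0.113).

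EPHB3 and EPHB4, receptor tyrosine kinases for ephrin-B ligands that guide the positioning of cells, did not differ detectably. EPHB3 read 5.50, 5.53 and 5.83 in the controls and 5.64, 5.83 and 5.78 in the knockdown (change 0.13, limma, adjusted p = 0.404). EPHB4 read 5.79, 6.06 and 5.68 in the controls and 5.90, 5.78 and 5.88 in the knockdown (change 0.01, limma, adjusted p = 0.949). In both genes the groups overlapped on the brighter probe set. BAMBI, a decoy receptor for the TGF-beta family, and TNFRSF19, an orphan receptor of the TNF family, lay below the filter. BAMBI read 4.81 to 5.33 on control arrays and 5.23 to 5.30 on knockdown arrays. TNFRSF19 read 4.68 to 4.89 on control arrays and 4.12 to 4.83 on knockdown arrays, where knockdown replicate 3 was the lowest of all 6 arrays.

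No secreted factor was called, with 3 of 7 tested. EDN1, the vasoconstrictor endothelin 1, had the brightest probe set of the list, at 7.01, 7.10 and 7.05 in the controls and 7.25, 6.94 and 7.10 in the knockdown. The knockdown arrays lay on both sides of the controls, and the change was 0.05 (95% interval −0.17 to 0.26, limma, adjusted p = 0.758). Its other probe sets, near 5.3, differed by 0.04 and 0.11.

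CCN1, a matricellular protein also known as CYR61, read 6.55, 6.59 and 6.78 in the controls and 6.85, 6.33 and 6.80 in the knockdown. The lowest and the highest value were both knockdown arrays, and the change was 0.02 (95% interval −0.23 to 0.28, limma, adjusted p = 0.899). The other CCN1 probe set was far dimmer, with means of 4.35 in the controls and 4.37 in the knockdown. FST, the activin antagonist follistatin, read 5.38, 5.59 and 5.70 in the controls and 5.70, 5.52 and 5.88 in the knockdown, with a change of 0.14 (limma, adjusted p = 0.374).

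The remaining secreted factors lay below the filter. CCN4, the matricellular protein WISP1, read 5.19 to 5.45 on control arrays and 5.25 to 5.60 on knockdown arrays. TNFRSF11B, the bone-protecting decoy receptor osteoprotegerin, read 5.22 to 5.29 on control arrays and 5.16 to 5.42 on knockdown arrays. FGF18, a growth factor of bone and cartilage, had 6 probe sets, none called, with changes from −0.0074 to 0.28. BMP4, a ligand of the TGF-beta family, was the member closest to the floor, at 4.26, 4.41 and the floor in the controls and 4.33, 4.51 and 4.53 in the knockdown, and was the 1 member without a probe set above the floor on all 6 arrays.

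Of the 6 surface, protease and transport genes, 4 were tested and none was called. PLAUR, the urokinase receptor, read 5.78, 6.02 and 5.90 in the controls and 5.83, 5.96 and 6.05 in the knockdown (change 0.05, limma, adjusted p = 0.766). CLDN1, a tight junction protein, read 5.76, 6.18 and 5.90 in the controls and 6.08, 6.16 and 6.17 in the knockdown. Control replicate 2 lay above all knockdown arrays, and the change of 0.19 was not called (limma, adjusted p = 0.203). Without that array the change was 0.30 and was called (limma, adjusted p = 0.0400), although the other CLDN1 probe set differed by −0.21.

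NRCAM, a neural cell adhesion molecule, read 5.76, 5.83 and 5.96 in the controls and 5.97, 5.87 and 5.97 in the knockdown (change 0.08, limma, adjusted p = 0.583). L1CAM, its relative, lay below the filter, at 4.92 to 5.48 on control arrays and 5.17 to 5.37 on knockdown arrays. MMP7, a matrix protease, read 5.56, 5.15 and 5.41 in the controls and 5.24, 5.28 and 4.94 in the knockdown, with overlap and no call (change −0.22, limma on all probe sets, adjusted p = 0.297).

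ABCB1, the multidrug efflux pump P-glycoprotein, gave unlike changes on its probe sets. The brighter one read 5.96, 6.14 and 6.03 in the controls and 5.91, 5.87 and 6.00 in the knockdown, a change of −0.12 (limma, adjusted p = 0.421). The dimmer one was at 4.78 in the controls and 5.11 in the knockdown with no overlap, a difference of 0.34 that was not called (limma on all probe sets, adjusted p = 0.0536). The change in the gap between them was 0.45 (exact permutation p = 0.1).

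Read by single probe sets, the list gave the same sparse picture. Of the members' 77 probe sets, 2 were called (2.6%), 1 each of AXIN2 and TIAM1, where 23.2% of all 54613 probe sets were called in that fit, 13.3% higher and 9.95% lower. Both calls were rises. Without an adjustment 8 had a p under 0.05. How many of all probe sets passed that threshold was not counted, but the 23.2% called are among them. Of the 77, 53 changes were above 0 and 24 below it, and the groups did not overlap for 11, against 37.2% of all probe sets. The signs over all probe sets were not counted, so the 53 and 24 have no background share. Of the 24 members with several probe sets, 14 had changes of both signs among them.

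Another list of Wnt targets held genes that many other pathways also control, together with the LEF factor gene LEF1 and the secreted inhibitor DKK1. It had 22 genes, of which 15 were tested and 9 were called (60%), 7 higher and 2 lower. Among all genes tested 47.3% were called, 25.3% higher and 22% lower. Both target lists were chosen with earlier results of these data known. The genes with the smallest adjusted p were the AP-1 subunit JUN, higher by 3.70, BIRC5, which encodes survivin, with a change of −1.86, the growth factor VEGFA, higher by 1.52, and the adhesion receptor CD44, higher by 0.75 (limma, largest adjusted p of the 4 = 3.95e-10). LEF1, the other gene called lower, had a mean of 8.54 in the controls and 7.80 in the knockdown on its brightest probe set. Its change was −0.75 (limma, adjusted p = 5.80e-08). LEF1 and DKK1 were read by their brightest probe set alone, and not under other settings of the processing. DKK1 was called higher by 0.41 (limma, adjusted p = 0.00440), while MYC and CCND1 were not called. The DKK1 mean was 5.45 in the controls, below the filter of 5.49, and 5.86 in the knockdown. DKK1 was therefore tested only through the knockdown arrays. The median change of the 15 tested genes was 0.27, against 0.05 for the tested members. Neither the difference between the lists nor that from all genes was tested.

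**Figure D4:**
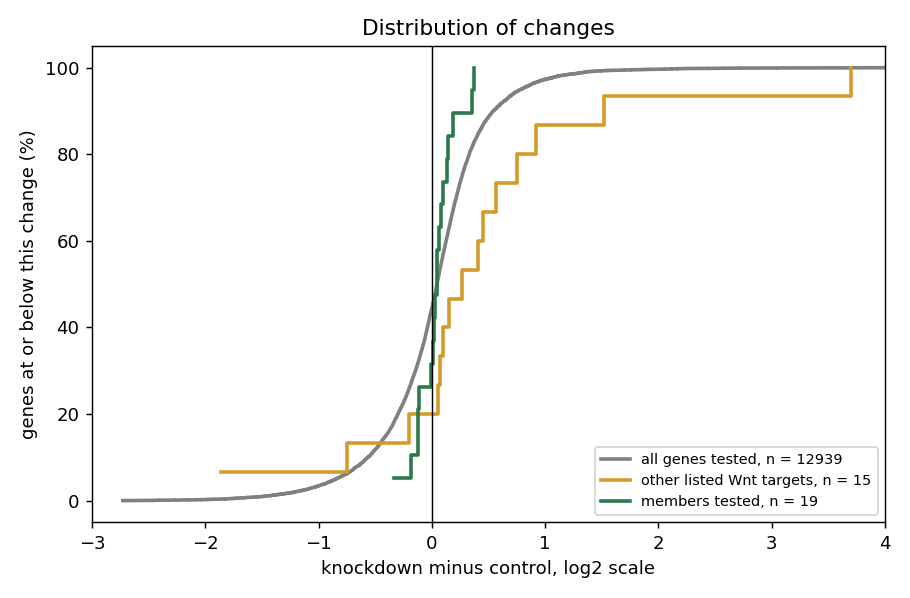
Share of genes at or below a given change (y axis, percent) against knockdown minus control on the log2 scale (x axis) for all 12939 genes tested (grey), the 15 tested genes of the other target list (yellow) and the 19 tested members (green). The members' curve climbs from −0.34 to 0.38. The spans of the curves cannot be compared directly, since the curves hold unlike numbers of genes.

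The pathway's own components were called at shares of 40% to 42.9%, beside 47.3% of all genes tested, 25.3% higher and 22% lower. The 42.9% is that of the nuclear partners and counts CTNNB1, the target of the knockdown itself. The differences were not tested. Of the ligands, receptors and secreted inhibitors 27 of 54 were tested, with 7 higher and 4 lower. The changes with the smallest adjusted p were 1.06 for WNT4, 0.87 for WNT10A, −0.76 for the secreted protein DKK2 and 0.58 for the Dishevelled DVL3 (limma, largest adjusted p of the 4 = 1.82e-05). The rise of WNT4 rests on 1 probe set, which averaged 5.75 over the arrays. Its mean was 5.22 in the controls, below the filter of 5.49, and 6.28 in the knockdown. It was therefore tested only through the knockdown arrays. Another WNT4 probe set, at 5.69, differed by −0.27 (limma on all probe sets, adjusted p = 0.233). That one became the brightest when any 1 knockdown array was left out. The other DVL3 probe set differed by −0.23 (limma on all probe sets, adjusted p = 0.275), and DVL3 was not called when its probe sets were averaged (0.18, limma, adjusted p = 0.112).

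Of the destruction complex and its regulators 15 of 17 were tested, with 6 higher and 0 lower by limma (0 lower also at an unadjusted p under 0.05). Beside these counts stand 25.3% of all genes tested called higher and 22% called lower, and the difference was not tested. The smallest adjusted p belonged to the kinase CSNK1E (0.81), the tankyrase TNKS2 (0.73), the deubiquitinase USP34 (0.38) and the ubiquitin ligase subunit BTRC (0.47). Both probe sets of CSNK1E rose. USP34 gave −0.025 where unmarked probe sets were preferred (limma, adjusted p = 0.877), and BTRC was not called when its probe sets were averaged (0.10, limma, adjusted p = 0.386). Of the nuclear partners 14 of 17 were tested, with 4 higher and 2 lower. Beside CTNNB1 itself these were led by the corepressor TLE3 (0.33), the acetyltransferase EP300 (0.37) and the chromatin remodeller SMARCA4 (−0.35). Averaged over their probe sets, TLE3 (0.15, limma, adjusted p = 0.157) and EP300 (0.19, limma, adjusted p = 0.0807) were not called. The SMARCA4 probe set read here has an _x_ name. Of the 9 SMARCA4 probe sets 5 were called lower and 1 higher, and the latter, about as bright, differed by 0.41 (limma on all probe sets, adjusted p = 0.00407).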

How the data were processed

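RNA of 6 MM1.S cultures was measured on 1-colour Affymetrix arrays. The authors deposited log2 values, 1 per probe set and array, used here as they were. MAS5 and PLIER are named in the submitters' processing notes without their roles, and the sources used here do not give the scaling between arrays. A stray label text about embryos was disregarded. Groups and replicate numbers came from the sample titles. Control probe sets (62 of 54675) were left out. Of the rest 41091 had 1 symbol, 1801 several and 11721 none. Of those with 1 symbol 41037 matched a RefSeq gene table (GRCh38.p14) by gene ID.

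A gene was read by its brightest probe set with 1 symbol and tested if its mean reached the median of all probe set means, 5.49. Limma 3.58.1 in R 4.3.3 (eBayes with trend, two-sided, Benjamini-Hochberg over all genes tested) compared the groups, and a further fit took all probe sets. Members were counted as above the floor of 4 beyond a tolerance of 0.01. The script was tested on simulated data. The members and lists were chosen with earlier results of these data known. Named genes were CTNNB1, all members, and up to 4 called genes of each comparison list by adjusted p. LEF1, DKK1, MYC and CCND1 of the other target list were named besides. The alternatives covered scaling, filter, probe set rule, variance model, offset, a test against a 1.2-fold change, a replicate block and leaving out each array.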

Additional observations from a re-analysis of the deposited data

How the results depend on the processing

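CTNNB1 stayed called lower under all 18 alternatives, with changes from −1.39 to −0.36 and adjusted p from 2.13e-24 to 0.00238 (limma). The count of members called higher, 2, became 1 with the filter at the 75th percentile, after averaging probe sets or with unmarked probe sets preferred, and ran from 1 to 3 when single arrays were left out. The count called lower, 1, became 0 with the mean over probe sets, where SOX4 turned to 0.13, and ran from 0 to 1 without single arrays. Against a 1.2-fold change 0 members were called either way (limma's treat; 0 members had an unadjusted p under 0.05 in that test) and 2825 genes in all. Of the members' probe sets 2 were called, 3 with quantile normalization, cyclic loess or robust eBayes, and 0 to 2 without single arrays. Counting as above the floor, 32 members, became 19 when the median of probe set means was used. Of the 16 members not called, 9 changed sign in at least 1 alternative without a call, in 34 of 269 fits, and CLDN1 was called once. With unmarked probe sets preferred, USP34 turned to −0.025 and WNT4 to −0.27, and without single arrays WNT4 ran from −0.38 to 1.08. Same-numbered arrays did not deviate together (Pearson's r −0.04, −0.12 and −0.22), and with the replicate block 5494 genes, the same counts of members and 1 member probe set were called. The unstated scaling, the offset and the dimness of many probe sets limit what small changes can show.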
